A study of Mus musculus with 2 samples.

Results

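Car4 Ednrb capillary endothelial cells were chosen by their counts from 2 single-cell RNA libraries of mouse lung, as endothelial cells with at least 3 transcript molecules (unique molecular identifiers, UMIs) of Car4 and Ednrb together. A cell was kept with at least 500 genes and at most 10% mitochondrial UMIs. It counted as endothelial with at least 3 UMIs over Pecam1, Cdh5, Cldn5, Egfl7 and Ramp2, and more of these than of Col1a1, Col1a2, Col3a1, Mfap4 and Bgn. Sftpc also had to stay under 5% of the cell's UMIs, for members and other endothelial cells alike. The rule gave 320 members among 3410 kept cells. There were 137 members among 500 endothelial cells and 1423 kept cells of the niche library, and 183 members among 1314 endothelial cells and 1987 kept cells of the distal library. The other endothelial cells, 363 in the niche library and 1131 in distal lung, are the set against which members were compared.

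Both libraries held CD45-negative lung cells, taken at day 7 after Labelling-4T1 cells had been injected into the vein. 4T1 cells come from a mammary carcinoma of the mouse and colonise the lung, and CD45 is the surface protein common to leukocytes. The niche group is 1 library and the distal group is 1 library. Cells were sorted by flow cytometry. The deposited tables are named Cherry-positive for niche cells and Cherry-negative for distal cells, and what carried that signal, how many mice were pooled, and their strain and age, stand in none of the labels. Both groups carry the injected cells, and no uninjected lung was used here. With 1 library per group nothing has a replicate check, no test was made, and all intervals are 95% intervals that cover counting error only.

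Gas crosses the alveolar wall through capillaries that hold at least a pair of endothelial cell types. General capillary cells express Gpihbp1, Plvap, Kit and the apelin receptor gene Aplnr, and serve as a source of new capillary cells. The wide, thin cells known as aerocytes or Car4-high cells lie against alveolar type 1 cells and express Car4, which encodes a membrane-bound carbonic anhydrase facing the blood, Ednrb, which encodes an endothelin receptor, and Apln, which encodes the ligand apelin.

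Libraries differed in depth. Members had a median of 2691 UMIs in the niche library and 2366 in distal lung, other endothelial cells 2226 and 1652, and the mesenchymal cells used below as a set that should lack endothelial genes 3566 and 2147. Ribosomal protein genes took a median of 8.72% of UMIs in niche members and 7.24% in distal members, against 14.4% and 12.2% in the other endothelial cells. A total of 7 cell barcodes stood in both tables, 6 were kept in both and 0 were members in both. Levels are given in CPM (counts per 1000000), counts of a gene scaled to a fixed total over the 10198 genes listed in both tables, after summing over the cells of a set. They compare sets, not genes.

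The genes of the rule are given as a description. Niche members summed to 1347 Car4 and 237 Ednrb UMIs, against 129 and 4 in other niche endothelial cells. Distal members summed to 1563 Car4 and 263 Ednrb UMIs, against 368 and 20 in other distal endothelial cells. Both genes were detected in 80 niche and 98 distal members, Car4 without Ednrb in 55 and 83, and Ednrb without Car4 in 2 and 2. Membership therefore rested mainly on Car4. Just inside the limit, 23 niche and 39 distal endothelial cells had 3 UMIs, and just outside it 30 and 93 had 2. The 5% limit on Sftpc left out 2 niche and 33 distal cells that met the other endothelial limits, whatever their Car4 and Ednrb UMIs.

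The upstream windows of Car4 and Ednrb, which chose the cells, and of Apln and Chst1, given as further markers of them, are shown. Each window holds the 250 bases before the gene's start in RefSeq (GRCm38.p6), 5′ to 3′ on the gene's strand, and capitals mark a match to the ETS site CCGGAAG or the T-box half-site GGTGTGA on either strand. The positions are chr11:84957504-84957753 on the + strand for Car4, chr14:103843702-103843951 on the - strand for Ednrb, chrX:48034854-48035103 on the - strand for Apln and chr2:92600867-92601116 on the + strand for Chst1.
Car4: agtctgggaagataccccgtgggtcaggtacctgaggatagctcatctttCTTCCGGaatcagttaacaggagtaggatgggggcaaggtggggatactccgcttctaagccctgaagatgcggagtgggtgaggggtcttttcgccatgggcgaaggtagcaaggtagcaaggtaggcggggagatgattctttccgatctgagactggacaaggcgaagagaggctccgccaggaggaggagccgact
Ednrb: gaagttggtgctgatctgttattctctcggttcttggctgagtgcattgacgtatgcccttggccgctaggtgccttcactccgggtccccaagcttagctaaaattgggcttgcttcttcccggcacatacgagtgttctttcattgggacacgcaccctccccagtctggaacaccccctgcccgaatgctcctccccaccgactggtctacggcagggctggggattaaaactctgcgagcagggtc
Apln: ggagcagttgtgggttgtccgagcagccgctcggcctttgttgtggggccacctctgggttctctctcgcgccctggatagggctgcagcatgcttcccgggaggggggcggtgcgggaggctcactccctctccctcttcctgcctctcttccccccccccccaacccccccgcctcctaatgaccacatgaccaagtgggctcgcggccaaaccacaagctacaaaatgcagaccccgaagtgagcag
Chst1: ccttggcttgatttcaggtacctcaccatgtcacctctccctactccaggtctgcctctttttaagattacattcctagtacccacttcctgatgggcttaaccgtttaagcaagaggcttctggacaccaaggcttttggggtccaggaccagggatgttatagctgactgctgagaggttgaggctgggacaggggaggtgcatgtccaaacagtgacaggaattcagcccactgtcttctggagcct
The letters CCGGAAG, which do not overlap with the other motif, stood in 6.91% of 32851 such windows and in 1 of 16 windows of 15 marker and named genes, that of Car4 at -200 on the - strand. The letters GGTGTGA stood in 3.33% of all windows and in 0 of the 16. Of the 18 marker and named genes wanted, Tbx2, Phlda1 and Crym had no window and were not searched. A match is a description of these letters, and nothing about a factor follows from its presence or absence in this window.

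Of the markers given for these cells, 3 were not used by the rule. They were chosen with earlier results of these data known, so their levels are a description and no test of the label. Apln had 111 UMIs in niche members against 15 in other niche endothelial cells, and 115 in distal members against 19 in other distal endothelial cells. The log2 ratio of members over other endothelial cells was 4.12 (95% interval 3.38 to 5.05) in the niche library and 4.85 (95% interval 4.17 to 5.66) in distal lung. Chst1, which encodes a sulphotransferase acting on cell-surface glycans, had 98 UMIs in niche members against 7 in other niche endothelial cells, and 141 in distal members against 6 in other distal endothelial cells. Prx encodes periaxin, a scaffold protein best known from myelinating Schwann cells. It had 168 against 85 UMIs, a log2 ratio of 2.25, in the niche library, and 229 against 178, a log2 ratio of 2.65, in distal lung. All 3 were higher in members of both libraries.

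Free RNA can give a UMI to a cell that does not express a gene, so shares of cells were set beside those of mesenchymal cells. Apln had a UMI in 39.4% of niche members, 3.31% of other niche endothelial cells and 0.633% of niche mesenchymal cells. The shares in the distal library were 35.0%, 1.41% and 0.538%. After every cell was thinned to 1200 UMIs, which left out 20 distal and 0 niche members, Apln was found in 26.3% of niche members and 1.65% of other niche endothelial cells, and in 23.3% and 1.17% in the distal library. The thinned shares of Chst1 were 27.0% and 0.826% in the niche library and 28.8% and 0.234% in distal lung. The order of the sets was the same before and after thinning for both genes.

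Over all genes with at least 30 UMIs in both sets together, a gene was called when its ratio was at least 2-fold and its interval left out equality. In the niche library 272 of 5687 genes (4.78%) were called higher and 265 (4.66%) lower in members than in other endothelial cells. In the distal library 352 of 7673 (4.59%) were higher and 480 (6.26%) lower. Since the rule picked members by genes of these same cells, ratios of members over other endothelial cells are given as a description. Of 5637 genes measured in both, 166 (2.94%) were higher in both libraries, 122 (2.16%) were lower in both, and 1 was called in opposite directions. The median log2 ratio over all genes was 0.02 in the niche and -0.01 in distal lung. Of 18 further markers of Car4 capillary cells, 15 were called higher in each library, with a median log2 ratio of 2.20 in the niche and 2.08 in distal lung. The 3 not called were Mef2c, Fendrr and Clec14a.

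**Figure D1:**
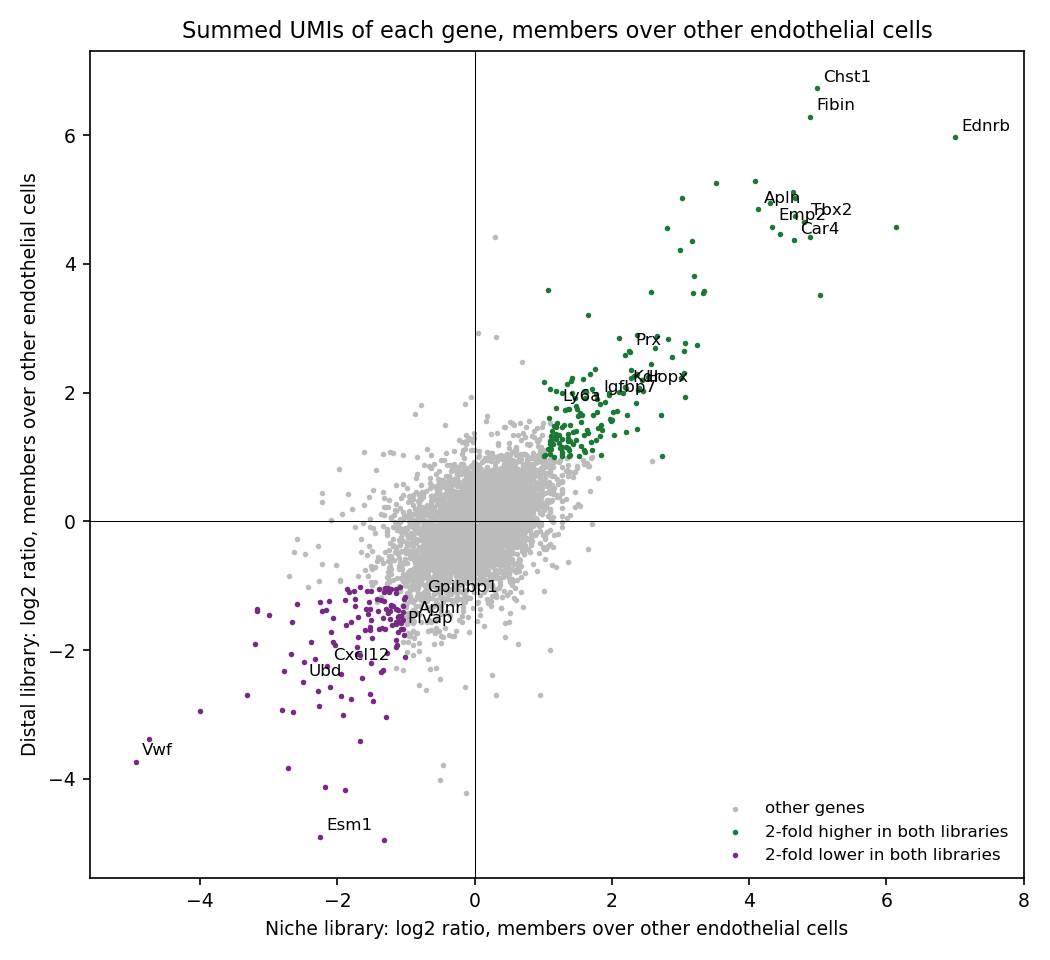
Log2 ratio of summed UMIs, members over other endothelial cells, for each gene measured in both libraries, with the niche library on the x axis and the distal library on the y axis. Green points (166) were called higher and purple points (122) lower in both libraries, and Car4 and Ednrb, which the rule used, lie at the upper right.

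Emp2 and Tbx2 ranked highest among the named genes. Tbx2, a T-box repressor, had 155 UMIs in niche members against 13 in other niche endothelial cells, and 168 in distal members against 32 in other distal endothelial cells. Its relative Tbx3 had log2 ratios of 2.02 in the niche and 1.71 in distal lung, and the antisense gene Tbx3os1 4.45 and 4.47. Reads of Tbx3 and Tbx3os1 may not be told apart, since the counting's use of strand is not given in the sources used here. Emp2, a tetraspan membrane protein also made by alveolar type 1 cells, stood at 2235 CPM in niche members and 111 CPM in other niche endothelial cells, and at 1708 and 71.3 CPM in the distal library. Pmp22, of the same family, had log2 ratios of 3.07 and 2.77 in the niche and distal libraries. These genes are not limited to the endothelium: Tbx2 had 124 CPM and Emp2 176 CPM in niche mesenchymal cells, and 244 and 271 CPM in distal mesenchymal cells.

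Fibin, which encodes a secreted protein described in zebrafish fin buds, had 91 UMIs in niche members against 7 in other niche endothelial cells, and 120 against 7 in the distal library. Cdkn2b, an inhibitor of cyclin-dependent kinases, had log2 ratios of 4.66 in the niche and 5.02 in distal lung. The alkaline phosphatase gene Alpl followed with 4.66 and 4.74, the integrin gene Itgb5 with 4.64 and 5.11, and the cytokine gene Il1a with 5.03 and 3.51. Adamtsl5 had only 1 UMI in other niche endothelial cells, against 43 in niche members, a log2 ratio of 6.13 (95% interval 4.15 to 12.04). In the distal library it had 36 UMIs in members and 7 in other endothelial cells. Slc22a23, Ccdc184, Phlda1 and Crym completed the 15 genes with the highest ratios, with log2 ratios from 3.17 to 4.88 in the niche library and from 3.55 to 5.29 in distal lung.

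**Figure D2:**
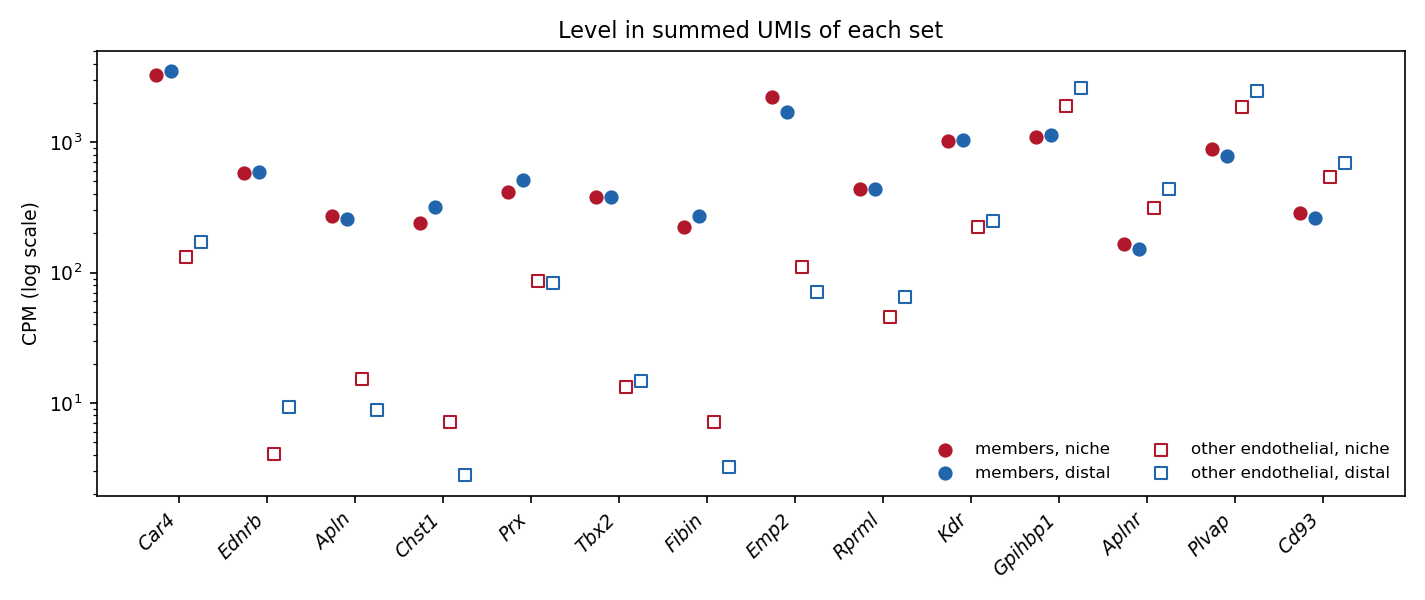
Level in CPM on a log axis of 14 genes in the summed UMIs of members (filled circles) and other endothelial cells (open squares), niche in red and distal in blue. Car4 and Ednrb were used by the rule, the genes from Apln to Kdr were higher in members of both libraries, and Gpihbp1, Aplnr, Plvap and Cd93 lie lower in members, though in the niche library Plvap alone of these 4 passed the 2-fold limit.

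Several general capillary genes were lower in members. Of 15 measured, 4 were called lower in the niche library (median log2 ratio -0.78) and 11 in the distal library (median -1.39), and 0 were called higher in either. Plvap, which forms the diaphragms of endothelial caveolae and fenestrae, stood at 882 CPM in niche members and 1851 CPM in other niche endothelial cells, and at 779.8 and 2485 CPM in the distal library. Kit, the receptor of stem cell factor, had log2 ratios of -1.31 in the niche and -1.67 in distal lung, while Kitl, its ligand, had 2.28 and 2.35. Aplnr had 67 UMIs in niche members against 306 in other niche endothelial cells, a log2 ratio of -0.91 that was not called, and 67 against 940 in the distal library, a log2 ratio of -1.52. The ligand genes Apln and Kitl were thus higher, and their receptor genes lower or below the 2-fold limit, in the same set of cells.

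Gpihbp1, which carries lipoprotein lipase to the capillary lumen, had log2 ratios of -0.78 in the niche, which was not called, and -1.19 in the distal library. The chemokine gene Cxcl12 had -2.15 and -2.25 and was called lower in both. Among the genes of the general capillary list, Cd36, Hpgd and Tmem100 were not called in either library, with log2 ratios of 0.24, 0.65 and 0.37 in the niche and -0.08, 0.21 and 0.24 in distal lung.

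Markers of larger vessels were often lower too. All 5 measured venous genes were called lower in the niche library (median log2 ratio -2.68), and 9 of 10 in the distal library (median -2.40). Vwf, which encodes von Willebrand factor, had 1 UMI in niche members against 111 in other niche endothelial cells, and 8 against 550 in the distal library. Vcam1, an adhesion receptor for leukocytes, had log2 ratios of -2.68 and -2.06, and the serine protease gene Prss23 -2.11 and -2.58. Of the arterial genes, 4 of 10 were lower and 1 higher in the niche library, and 8 of 12 lower and 0 higher in distal lung. Hey1, a target of Notch, had log2 ratios of -1.70 and -1.80, and the connexin gene Gja4 -1.22 and -1.30. Fam181b had 0 UMIs in niche members, where a count of 0 allows up to 3, against 32 in other niche endothelial cells, and 1 against 76 in the distal library.

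The other genes with the lowest ratios were Atp13a3, Tinagl1, Rnd1, Fabp4, Esm1, Scgb3a1, Ivns1abp, Ubd and Pcsk5. Esm1, a secreted proteoglycan of tip cells, had 10 UMIs in niche members and 121 in other niche endothelial cells, and 2 and 363 in the distal library. Fabp4, a fatty acid carrier, had 4 and 71 UMIs in the niche library and 1 and 104 in distal lung. All endothelial cells outside the member set were pooled here, whatever vessel they came from.

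**Figure D3:**
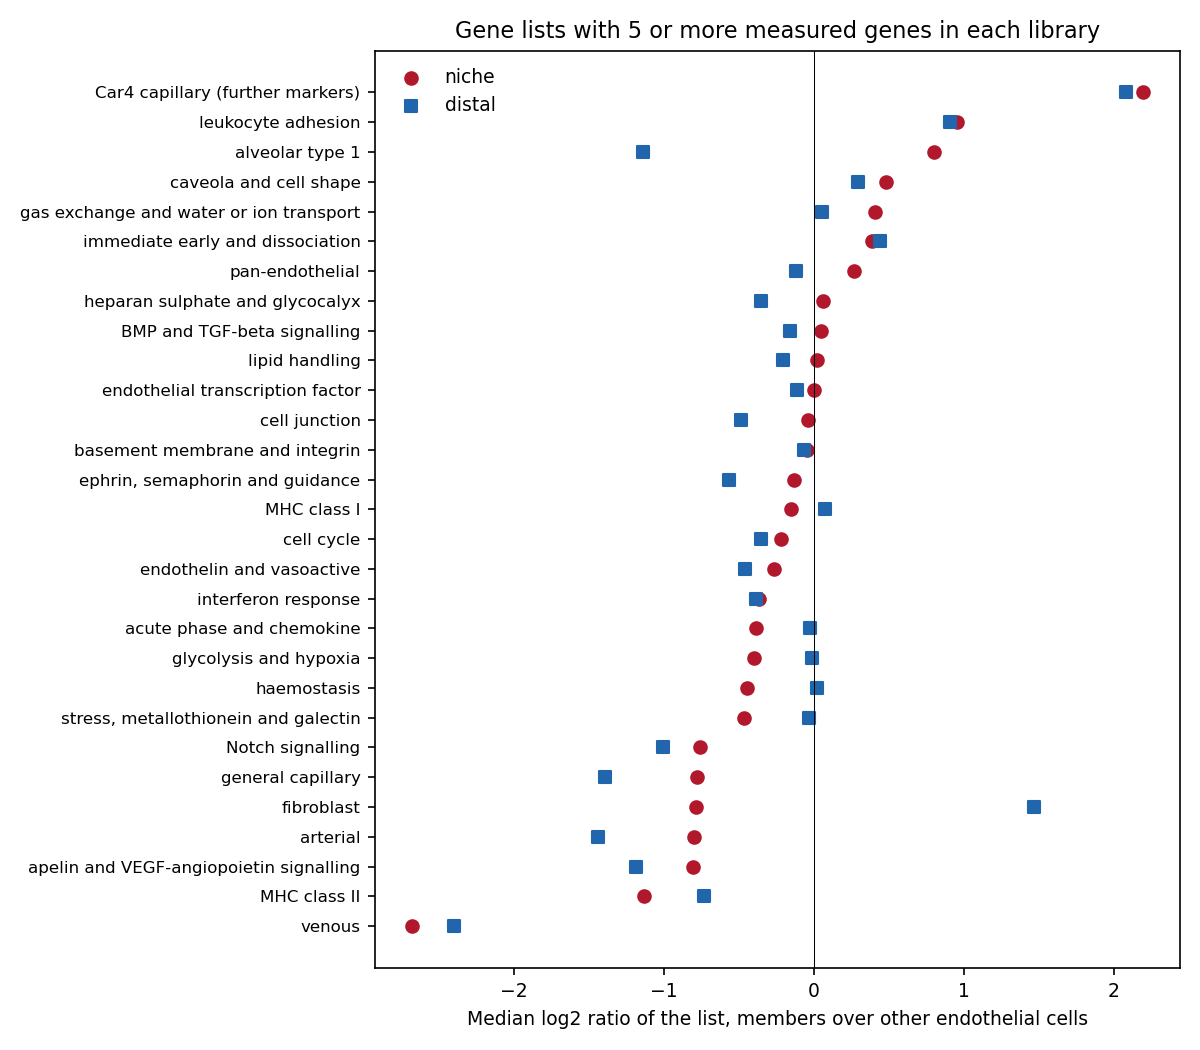
Median log2 ratio, members over other endothelial cells, for each list with at least 5 measured genes, niche as red circles and distal as blue squares. Further Car4 capillary markers lie highest (2.20 and 2.08) and venous genes lowest (-2.68 and -2.40), while the alveolar type 1 and fibroblast lists differ in sign between the libraries.

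Signalling genes divided within pathways. In the apelin, VEGF and angiopoietin list 3 genes were higher in both libraries: Apln, Kdr and Nrp1. Kdr, the main VEGF receptor, stood at 1027 CPM in niche members and 222 CPM in other niche endothelial cells, and at 1048 and 249 CPM in the distal library. Nrp1, its co-receptor, had log2 ratios of 1.64 and 1.38, while Nrp2, known from lymphatic and venous cells, had -1.91 and -3.00. Vegfa, the ligand, had -1.50 in the niche and -1.82 in distal lung. In all, 6 of 15 genes of the list were lower in the niche and 8 of 16 in distal lung, with medians of -0.80 and -1.18.

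Edn1, which encodes endothelin-1, was called lower in members. It stood at 324 CPM in niche members and 684 CPM in other niche endothelial cells, and at 325 and 969.9 CPM in the distal library. Its log2 ratios were -1.07 (95% interval -1.36 to -0.81) and -1.57 (95% interval -1.83 to -1.34). Ece1, the enzyme that cuts the endothelin precursor, had -0.06 and -0.22 and was not called. Nostrin, which binds endothelial nitric oxide synthase, was called higher, with 1.22 and 1.33.

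Leukocyte adhesion genes were called higher for 4 of 9 in the niche and 5 of 10 in distal lung, and lower for 2 and 3. Icam1, a ligand of leukocyte integrins, stood at 513 CPM in niche members and 231 CPM in other niche endothelial cells, and at 694 and 346 CPM in the distal library. Icam2, another such ligand, had log2 ratios of 1.47 and 1.40. Cd34 had 1.61 and 2.03. Sirpa, the receptor of CD47, had 35 UMIs in niche members against 7 in other niche endothelial cells, and 35 against 4 in the distal library. The MHC class II list went the other way: 4 of 6 genes were lower in the niche library and 2 of 7 in distal lung, with H2-Eb1, an antigen-presenting chain, at -1.37 and -1.22. None of the 19 MHC class I genes was called in either library.

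Ly6a, the surface protein Sca-1, had log2 ratios of members over other endothelial cells of 1.19 in the niche and 1.77 in distal lung. Timp2, an inhibitor of matrix metalloproteinases, had 1.39 and 1.50, and Igfbp7 1.79 and 1.91. The sulphotransferase gene Chst2 moved with Chst1, with log2 ratios of 3.17 and 4.36.

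Markers of other cell types were also found. The alveolar type 1 list summed to 4176 CPM in niche members and 731 CPM in other niche endothelial cells, and to 3586 and 1039 CPM in the distal library. Its genes Emp2 and Hopx made up most of the members' sums. Hopx had 1614 CPM in niche and 1472 CPM in distal members and log2 ratios of 2.40 and 2.07 over other endothelial cells, whereas the defining alveolar type 1 gene Ager had 1 UMI in niche and 15 in distal members. Aqp5 and Krt7 were at 0 in niche members. The erythroid and platelet list summed to 7175 CPM in niche members and 10212 CPM in other niche endothelial cells, and to 9.01 and 5.09 CPM in the distal library, where 2 of its genes were listed. The lymphatic list summed to 2791 CPM in niche members and 8124 CPM in other niche endothelial cells, and to 1109 and 1297 CPM in the distal library. Of its 1136 UMIs in niche members, 928 were Ccl21a UMIs of 3 cells. Of its 492 UMIs in distal members, 385 were Ccl21a UMIs of 1 cell. On the fibroblast list, apart from the genes of the rule, summed levels were 567 CPM in niche members and 938 CPM in other niche endothelial cells, and 608 and 319 CPM in the distal library, with Pdgfra at 0 in members of both. The distal members' sum was 270 UMIs, of which 105 were Gsn UMIs of 1 cell and 63 were Inmt UMIs of 1 cell. The part of these other cell types in the ratios was not tested. Scrublet called 0 niche and 8 distal members as doublets, and they were kept.

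Members were not alike, and their level of Car4 and Ednrb marked the difference. The bins used here and the 5 genes counted (Apln, Chst1, Tbx2, Fibin and Rprml) were chosen after values were seen, so the shares are a description. At least 1 UMI of the 5 genes was found in 42.6% of niche and 46.8% of distal members with 3 to 5 UMIs of Car4 and Ednrb. The shares were 78.6% and 81.4% with 6 to 11 UMIs, and 100% and 96.7% with 12 or more. Endothelial cells with 0 UMIs had 17.7% in the niche and 11.4% in distal lung, and those with 1 to 2 UMIs 20.4% and 21.7%. Median depth differed between these bins, from 2205 UMIs with 0 to 3062 with 12 or more in the niche library, and from 1602 to 2933 in distal lung.

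**Figure D4:**
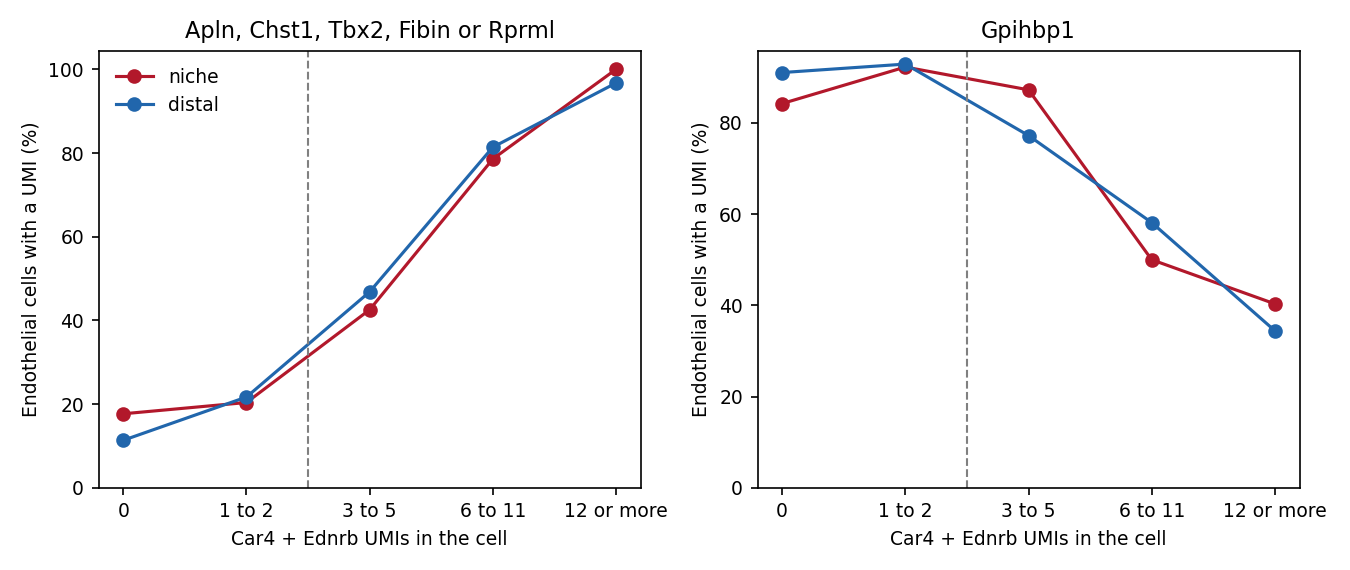
Percent of endothelial cells with at least 1 UMI of Apln, Chst1, Tbx2, Fibin or Rprml (left) and of Gpihbp1 (right), by the UMIs of Car4 and Ednrb in the cell, niche in red and distal in blue. The dashed line is the limit for membership. The first share is 100% in niche and 96.7% in distal cells with 12 or more UMIs, where that of Gpihbp1 is 40.3% and 34.4%.

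Gpihbp1 ran the other way. It had a UMI in 87.2% of niche and 77.2% of distal members with 3 to 5 UMIs of Car4 and Ednrb, in 50% and 58.1% with 6 to 11, and in 40.3% and 34.4% with 12 or more. In endothelial cells with 0 UMIs the shares were 84.2% and 91.0%. The bin with 12 or more UMIs had the lowest shares and the highest median depth. Plvap was 145 CPM in niche and 98.4 CPM in distal members with 12 or more UMIs, against 1814 and 1510 CPM with 3 to 5 UMIs.

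The same division appeared between members with both genes and members with Car4 without Ednrb. In the niche library Apln stood at 421 CPM with both genes and 50.4 CPM without Ednrb, and Gpihbp1 at 376 and 2232 CPM. In the distal library Apln stood at 383 and 109.9 CPM and Gpihbp1 at 351 and 2198 CPM. Aplnr was 41.3 CPM with both genes and 359 CPM without Ednrb in the niche library, and 24.5 and 319 CPM in distal lung. Of the members, 39.4% in the niche and 41.0% in distal lung had the 5 genes and no Gpihbp1 UMI, 36.5% and 30.6% had both, 21.9% and 27.9% had Gpihbp1 alone, and 3 niche cells and 1 distal cell had neither. For comparison, the other endothelial cells had Gpihbp1 at 1882 CPM and Aplnr at 310.4 CPM in the niche library, below members without Ednrb, and at 2617 and 435 CPM in the distal library, above them.

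Members made up 27.4% of niche endothelial cells (137 of 500, exact Clopper-Pearson interval 23.5% to 31.5%) and 13.9% of distal endothelial cells (183 of 1314, 12.1% to 15.9%). Deeper cells pass a limit on UMIs more easily. After thinning to 1200 UMIs, members were 19.7% of niche endothelial cells (96 of 488, 16.2% to 23.5%) and 11.7% of distal endothelial cells (118 of 1011, 9.76% to 13.8%). For lack of depth, thinning left out 295 distal and 0 niche endothelial cells, so it also changed which distal cells were counted. With at least 12 UMIs of Car4 and Ednrb, a limit chosen after values were seen, they were 12.4% (62 cells) and 4.64% (61 cells). As a share of all kept cells, members were 9.63% in the niche and 9.21% in distal lung, and 6.91% and 7.46% after thinning. The 2 denominators differ because endothelial cells were 500 of 1423 kept cells in the niche library and 1314 of 1987 in distal lung, and the sort and dissociation can set both shares.

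Between niche and distal members, none of the 18 further Car4 capillary markers was called in either direction (median log2 ratio of niche over distal -0.14, against -0.02 over all 4230 genes measured). Apln stood at 273 CPM in niche and 259 CPM in distal members (log2 ratio 0.07, 95% interval -0.32 to 0.46), Kdr at 1027 and 1048 CPM, and Tbx2 at 381 and 379 CPM. Chst1 was 241 CPM in niche and 318 CPM in distal members, a log2 ratio of -0.40 that was not called. Over all genes, 46 (1.09%) were called higher and 37 (0.875%) lower in niche than in distal members. After thinning to 1200 UMIs these counts were 15 and 22, and with genes of at least 10 UMIs counted they were 108 and 104. In the other endothelial cells, whose sums held more UMIs, 144 of 8037 (1.79%) were higher and 150 (1.87%) lower.

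Genes of the interferon response were among those higher in niche members. Of 37 measured, 8 were called higher and 0 lower (median log2 ratio 0.23). The 8 were Cxcl9, Cxcl10, Isg20, Ifit1, Ifit3, Zbp1, Gbp5 and Ubd. The other endothelial cells went the same way, with 7 of 42 genes higher in the niche and 0 lower (median 0.41). Ratios were above 0 for 26 of 37 genes in members and 37 of 42 in other endothelial cells. Cxcl9, which encodes a ligand of the T cell chemokine receptor CXCR3, had 38 UMIs in 13 niche members and 7 UMIs in 3 distal members. Cxcl10, which encodes another ligand of that receptor, had 146 UMIs in 39 niche members and 61 UMIs in 5 distal members. Ubd, which encodes a ubiquitin-like protein, rested on 40 UMIs in 4 niche members and 3 UMIs in 2 distal members, and 19 of the 40 lay in 1 cell. The nucleic acid sensor gene Zbp1 was more spread, with 34 UMIs in 18 niche and 10 UMIs in 9 distal members, and so was Ifit1, with 49 UMIs in 26 and 21 UMIs in 12.

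Fewer interferon genes were called at higher limits, where fewer UMIs were left to count. With at least 6 UMIs of Car4 and Ednrb, 2 of 29 interferon genes were called higher (median 0.07), and with at least 12 UMIs 2 of 24 (median 0.00). At the limit of 3 UMIs 1.09% of all genes were called higher. That share was not worked out at the limits of 6 and 12, so these counts have no share beside them. Of the 8 genes, Zbp1, Gbp5, Isg20, Cxcl9 and Ubd fell under the minimum of 30 UMIs at the limit of 6, and so were not called whatever their ratio. Zbp1 had 18 niche and 4 distal UMIs there, a log2 ratio of 2.02, Gbp5 13 and 2 (2.42), Isg20 20 and 7 (1.44) and Cxcl9 19 and 6 (1.57), while the 19 niche UMIs of Ubd lay in 1 cell and distal members had 0. Ifit3 was called at that limit, and Ifit1, with 21 and 10 UMIs, had an interval that held equality. Cxcl10 kept 62 UMIs in 25 niche members and 56 UMIs in 3 distal members, a log2 ratio of 0.13 that was not called. With at least 12 UMIs, Zbp1 had 11 niche and 1 distal UMI, Gbp5 6 and 0, Ifit1 15 and 5, Isg20 11 and 5, and Ifit3 12 and 8. Cxcl10 had 25 and 25, in 19 niche and 2 distal members, Cxcl9 4 and 5, in 4 and 1, and Ubd 0 and 0. Niche sums were thus above distal sums for 5 of the 8 genes, on few UMIs. The genes called at that limit were Gbp4, a guanylate-binding protein gene with 104 UMIs in 30 of 62 niche members and 46 UMIs in 25 of 61 distal members, and the interferon-inducible GTPase gene Ifi47, with 81 UMIs in 31 and 34 UMIs in 19. Of 83 genes called with at least 3 UMIs and 62 called with at least 12 UMIs, 13 were called at both limits, which is 15.7% of the first list and 21.0% of the second.

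**Figure D5:**
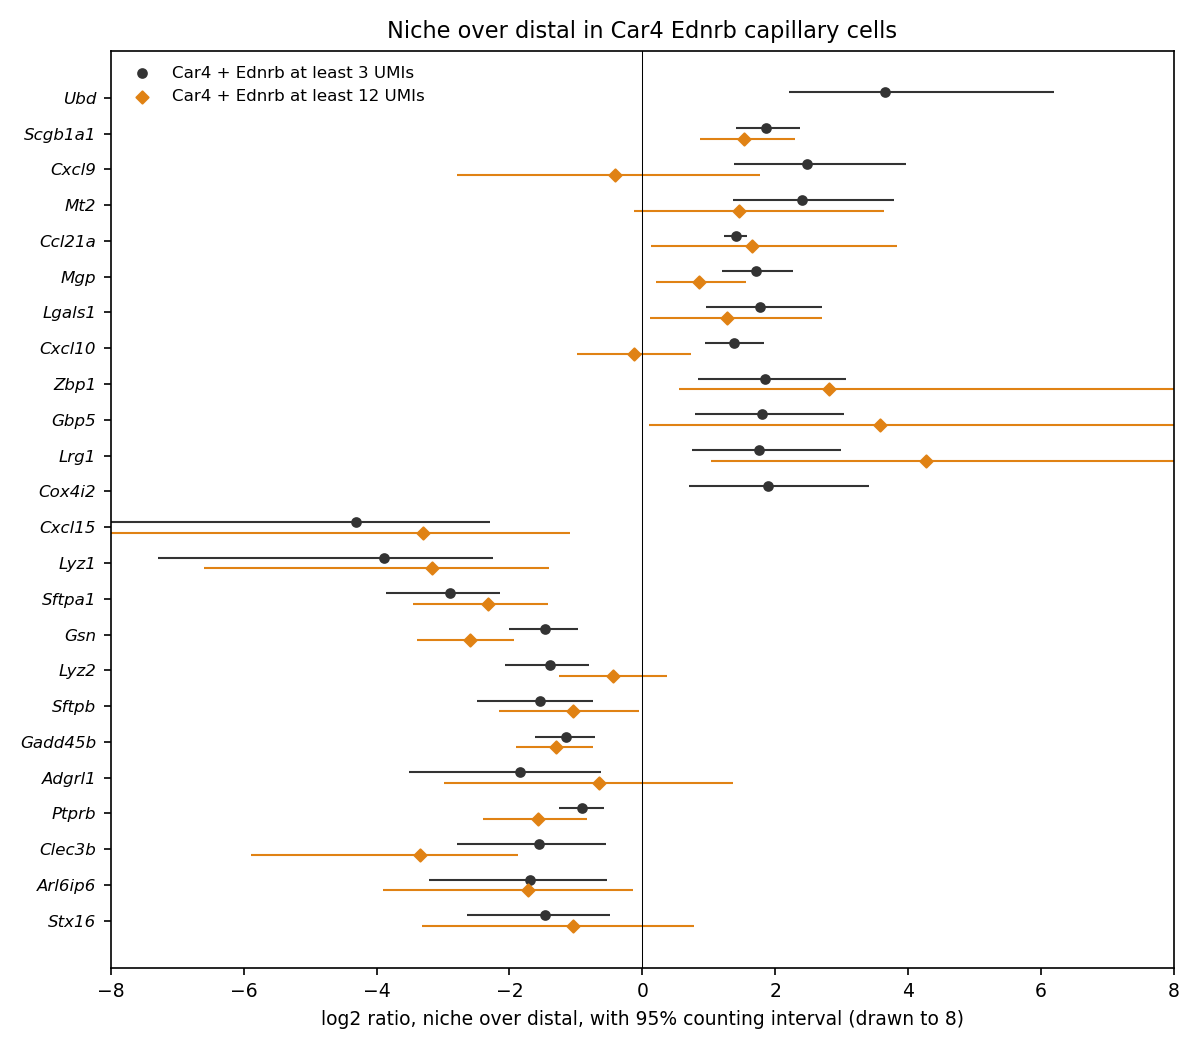
Log2 ratio of niche over distal in members, with its 95% counting interval, for the 24 genes chosen by rank, with at least 3 (grey circles) or at least 12 (orange diamonds) UMIs of Car4 and Ednrb. Cxcl9 and Cxcl10 lie above 0 at the first limit and below it at the second (-0.42 and -0.13), Gadd45b lies below 0 at both, and Ubd and Cox4i2 had no UMI at the second limit. At the second limit the distal UMIs of Cxcl9 lay in 1 cell and those of Cxcl10 in 2 cells.

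Among the other genes called higher in niche members, Mgp, Lgals1, Mt2 and Scgb1a1 stood at higher levels in mesenchymal cells than in members. Mgp, an inhibitor of calcification, stood at 305 CPM in niche and 92.4 CPM in distal members, and at 12152 and 5738 CPM in mesenchymal cells. Lgals1, a galectin, stood at 125 and 36.1 CPM in members and at 3014 and 1358 CPM in mesenchymal cells. Mt2, a metallothionein, stood at 101 and 18.0 CPM in members and at 3199 and 1113 CPM in mesenchymal cells. Scgb1a1, a product of club cells, stood at 398 and 108 CPM in members and at 796 and 125 CPM in mesenchymal cells. The part of free RNA in these differences was not tested.

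A few cells carried some of the sums. Of 950 UMIs of the lymphatic chemokine gene Ccl21a in niche members, 928 lay in 3 cells, and of 391 in distal members 385 lay in 1 cell. Of 25 Cox4i2 UMIs in niche members 24 lay in 1 cell, and without the highest cell of each set its log2 ratio was -1.75. Haemoglobin Hbb-bs had 1259 UMIs in niche members, 1199 of them in 1 cell, and 0 in distal members. Lrg1 had 32 UMIs in 8 niche members and 10 UMIs in 5 distal members.

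Of 6 alveolar type 2 genes measured, 5 were called lower in niche members and 0 higher (median log2 ratio -2.22). Sftpa1, a surfactant protein gene, stood at 34.4 CPM in niche and 264 CPM in distal members, at 49.7 and 228 CPM in other endothelial cells, and at 18.5 and 218 CPM in mesenchymal cells. Lyz1 had 2 UMIs in niche and 40 in distal members, Cxcl15 had 1 and 32, Lyz2 30 and 87, and Sftpb 16 and 52. Sftpc, which the rule used, had a UMI in 21.9% of niche and 98.4% of distal members, and in 33.5% of niche and 96.5% of distal mesenchymal cells. The distal levels of Sftpa1 were thus close in all 3 sets, and the part of free RNA was not tested. In the niche library 10 of the 14 Sftpa1 UMIs of members lay in 1 cell.

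Gadd45b, a stress-response gene, stood at 149.8 CPM in niche and 334 CPM in distal members, a log2 ratio of -1.15 (95% interval -1.61 to -0.71), and remained called at the limits of 6 and 12 UMIs. Ptprb, the endothelial receptor phosphatase, had -0.91 (95% interval -1.26 to -0.58), below the 2-fold limit, and -1.56 with at least 12 UMIs. Adgrl1, Arl6ip6 and Stx16 had log2 ratios of -1.85, -1.70 and -1.46, on at most 34 UMIs in a set. The fibroblast genes Gsn and Clec3b had -1.46 and -1.55, but 105 of 130 distal Gsn UMIs and 31 of 33 distal Clec3b UMIs lay in 1 cell. Their log2 ratios turned to 0.76 and 0.61 without the highest cell of each set, and to 0.99 and 2.11 without called doublets.

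The ratio of ratios divides the niche over distal ratio of members by that of other endothelial cells. Its sign does not say in which set the libraries differ more. Of 4200 genes measured, 69 (1.64%) were called higher and 60 (1.43%) lower. General capillary genes had 2 of 15 higher, Lpl and Npr3, and 0 lower (median 0.44, against 0.04 over all genes). Their median niche over distal log2 ratio was -0.06 in members and -0.47 in other endothelial cells. In either set 0 of these 15 genes were called between niche and distal. Of 37 interferon genes 2 were higher and 1 lower (median -0.17). For Ubd, the niche over distal log2 ratio was 3.66 in members and 3.66 in other endothelial cells, and for Cxcl9 2.48 and 3.00. Their ratios of ratios were -0.01 (95% interval -1.51 to 2.55) and -0.52, with an interval that also held 0, so a difference between the sets was not detectable at this depth.

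Plau, which encodes the secreted protease urokinase, had 27 UMIs in niche members and 37 in distal members, against 54 and 8 in other endothelial cells, a ratio of ratios of -4.14 (95% interval -5.70 to -2.83). Lgals1 had a niche over distal log2 ratio of 1.77 in members and 4.56 in other endothelial cells, a ratio of ratios of -2.80 (95% interval -3.75 to -1.75), and Ccl21a, carried by few cells, -1.61. Gbp5 had 1.80 and 0.37, a ratio of ratios of 1.42 (95% interval 0.34 to 2.72). The heat shock gene Hspa1a had 0.84 in members and -0.88 in other endothelial cells, a ratio of ratios of 1.72 (95% interval 1.25 to 2.21).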

How the data were processed

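The deposited files are tables of raw UMI counts per gene and cell, 1 per library, with no normalization by the authors. Chromium Single Cell 3′ kits and a HiSeq4000 were used, per the labels' protocols. The submitters' processing notes name the mm10 build, Cell Ranger 2.1.1 and R 3.4.1, and the annotation is not given in the sources used here. With 10791 genes listed for niche and 10814 for distal cells, ratios use the 10198 genes in both, and no 0 was assumed for an unlisted gene.

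Cells were filtered and grouped as in the report, and UMIs were summed over each set within a library (Python 3.11.15, numpy 2.4.6, scipy 1.17.1, pandas 2.3.3). The filter left out 50 niche and 9 distal cells. Members summed to 409372 UMIs in the niche and 444685 in distal lung, and other endothelial cells to 994249 and 2165414. Log2 ratios used sums scaled to the common genes with 0.5 UMI added. Intervals are exact conditional binomial intervals of the sums. The ratio of ratios has an exact conditional odds ratio interval, or a normal one where the sum was above 4000 UMIs. Shares have exact Clopper-Pearson intervals. Mesenchymal cells were kept cells with at least 3 UMIs over Col1a1, Col1a2, Col3a1, Mfap4 and Bgn, more of these than of the 5 endothelial genes, and Sftpc under 5%. Doublets were called with Scrublet in scanpy 1.11.5 (10 niche and 27 distal cells) and kept. The ratio, interval and call steps were run on sums simulated with counting error only. Membership, thinning, doublet calls, the ratio of ratios and UMIs gathered in few cells were not simulated.

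Members, gene lists and markers were chosen with earlier results of these data known. Named genes were the 15 highest and 15 lowest, members over other endothelial cells, by the interval bound nearest equality, taking the weaker library, and the 12 highest and 12 lowest for niche over distal, besides genes of the 14 cell type lists and 22 further lists. Mitochondrial, ribosomal, haemoglobin and unnamed genes and the genes of the rule were left out of the ranking. Hbb-bs, Gpihbp1 by bin, the 5 genes counted by bin, the limits of 6 and 12 UMIs and the removal of each gene's highest cell were chosen after values were seen. A withheld gene is not reported here.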

Additional observations from a re-analysis of the deposited data

Results flagged for a closer look

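For 4 genes the ratio ran in opposite directions in the sets or libraries set side by side, each past its counting interval. No test of the difference was made, and each rests on few molecules or few cells. Timm23, a subunit of the mitochondrial import channel, had a log2 ratio of members over other endothelial cells of -1.62 in the niche library (4 against 33 UMIs) and 1.08 in the distal library (14 against 33 UMIs).

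The other 3 are genes of fibroblasts. In the ratio of ratios, 3 genes of the fibroblast list were measured (Gsn, Mgp and Inmt), and 2 were called lower (median -2.54). Gsn, which encodes gelsolin, had a niche over distal log2 ratio of -1.46 in members and 1.13 in other endothelial cells, and 105 of its 130 UMIs in distal members lay in 1 cell. Inmt had -1.02 in members (35 against 78 UMIs) and 1.52 in other endothelial cells (157 against 120 UMIs). Of its 78 UMIs in distal members, 63 lay in 1 cell. Pcolce2, an enhancer of procollagen processing, had -1.05 in members (13 against 30 UMIs) and 1.82 in other endothelial cells (31 against 19 UMIs). Of its 30 UMIs in distal members, 12 lay in 1 cell.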

How the results depend on the processing

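No paired analysis was possible because each group has 1 library. The member share of endothelial cells, 27.4% in the niche and 13.9% in distal lung, was 33.4% and 21.0% with at least 2 UMIs of Car4 and Ednrb, 19.2% and 9.13% with at least 5, 18% and 7.91% with at least 6, 12.4% and 4.64% with at least 12, and 19.7% and 11.7% after thinning to 1200 UMIs; it was 19.2% in the distal library with at least 1000 genes per cell. The niche share was above the distal share in each. Against 265 genes lower in niche members than in other niche endothelial cells, 433 were lower with at least 5 UMIs, 468 with at least 6 and 556 with at least 12, and against 480 in the distal library 306 were lower with at least 2. For niche over distal in members, 46 genes were higher and 37 lower. These were 15 and 22 after thinning and 108 and 104 with genes of at least 10 UMIs counted, 63 were lower with at least 2 UMIs of Car4 and Ednrb, and 29 were higher with at least 12.

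Ratios of members over other endothelial cells reversed for 0 of the named genes. After thinning to 1200 UMIs, 10 of 40 named and marker genes followed lost their call in the niche library and 5 in distal lung. For niche over distal 31 genes were followed, of which Apln, Chst1, Ly6a and Ptprb were not called to begin with. After thinning, 19 lost their call with the same sign, and 2 more changed sign. With at least 12 UMIs these counts were 16 and 4. A sum that fell under 30 UMIs also counts as a lost call. For niche over distal, Cox4i2 was -1.75 without its highest cell. It was -2.27 with at least 5 UMIs, -1.29 after thinning and -1.60 with at least 6, but each of these rests on 0 niche UMIs with 0.5 added and shows no direction. Plac8 was -0.72 with at least 5 UMIs. Cxcl10 was -0.24 after thinning and -0.13 with at least 12 UMIs, and Cxcl9 -0.42 with at least 12, where Ubd and Cox4i2 had 0 UMIs in both sets (-0.13 from the added 0.5 UMI). With at least 12 UMIs the distal UMIs of Cxcl10 lay in 2 cells and those of Cxcl9 in 1 cell. Gsn and Clec3b were 0.99 and 2.11 without called doublets, and 0.76 and 0.61 without their highest cell. Apln, near equality, was -0.030 with each cell given equal weight. The causes were not tested, except that leaving out the highest cell takes away, by construction, the cell that held most distal Gsn and Clec3b UMIs.

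With 1 library per group, counting error is all that the intervals cover. Sums of under 30 UMIs were not called, so small differences in scarce genes were not detectable at this depth.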

Other observations

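Some genes were listed in only 1 table and gave no ratio. In the niche table Saa3, an acute phase gene, had 21 UMIs in 18 members and 55 UMIs in 43 other endothelial cells. The lymphatic gene Mmrn1 had 25 UMIs in 2 members and 151 UMIs in 34 other endothelial cells, and Ptx3, a pentraxin, had 18 UMIs in 1 member and 99 UMIs in 24 other endothelial cells. In the distal table Cnr2, which encodes a cannabinoid receptor, had 12 UMIs in 12 members and 26 UMIs in 24 other endothelial cells, and Prrt4 had 18 UMIs in 16 members and 7 UMIs in 6. These genes were chosen after their values were seen.

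Genes of basement membrane and shape divided within their lists. Lamc1, a laminin chain, had log2 ratios of members over other endothelial cells of 1.09 in the niche and 2.05 in distal lung, and the laminin receptor gene Itga3 2.18 and 2.08. Ahnak, a large scaffold protein, had -1.42 and -1.21. Caveolin gene Cav1 was not called, at 0.10 and -0.42, nor was the water channel gene Aqp1, at 0.41 and 0.15. The homeobox gene Meox1 was called higher in both libraries, at 1.18 and 2.02, and the connexin gene Gja1 lower, at -1.95 and -2.37. Of 12 cell cycle genes measured in each library 0 were called higher, and 0 in the niche and 2 in distal lung were called lower. Over all genes, 4.78% in the niche and 4.59% in distal lung were higher, and 4.66% and 6.26% lower. A count of 0 higher among 12 genes is near those shares.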
